A study of Mus musculus with 2 samples.

Results

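Of the 1141 mouse microRNA (miRNA) probes on the arrays, 54 had a target sequence with 70% or more G plus C. The rule that picks these probes uses base composition and no measured value. No probe at or above this minimum belonged to the miR-297, miR-466, miR-467 or miR-669 families, which were to be left out by name. The MCT library was lung RNA of WT mice given monocrotaline (MCT), 14 weeks old per the treatment description and treated for 30 days. MCT, an alkaloid from plants, damages the endothelium of lung vessels and serves in rodents as a model of pulmonary arterial hypertension. The untreated library was lung RNA of WT mice without MCT, whose age the sources used here do not state, nor do they state the number of mice behind either library. Each library was 2 µg of total RNA labelled with Cy3 and read on 1 array, with 3 repeat spots per miRNA probe. With 1 array per group the libraries could not be compared by a test, and treatment, array and labelling reaction cannot be told apart.

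miRNAs are short RNAs cut from hairpin transcripts by Drosha and Dicer, and each guides Argonaute to messenger RNAs through its seed, the bases near its 5′ end. Mirtrons are hairpins released from short introns by splicing in place of Drosha. Many of them carry a G-rich 5′ arm and a C-rich 3′ arm. An array probe binds its target by base pairing, and G and C pairs hold more firmly than A and U pairs, so the signals of different probes are not amounts that can be set against each other.

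The targets of 42 of the 54 probes matched a mature miRNA of RefSeq (GRCm38.p6) letter for letter. The sequences of 9 of them are printed because the values described next are mostly theirs, with each run of 3 or more G in capitals. The first 4 are the miRNAs at least 2-fold lower in the MCT library, the next pair are 2 of the brightest, and the last 3 are bright miRNAs with small differences.
miR-2861: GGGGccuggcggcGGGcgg
miR-705: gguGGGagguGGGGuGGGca
miR-3077-5p: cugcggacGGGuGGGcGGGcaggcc
miR-341-5p: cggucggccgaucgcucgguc
miR-5126: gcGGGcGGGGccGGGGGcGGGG
miR-149-3p: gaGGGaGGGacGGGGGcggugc
miR-2137: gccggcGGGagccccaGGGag
miR-5130: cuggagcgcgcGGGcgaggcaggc
miR-1895: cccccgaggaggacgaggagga
miR-341-5p and miR-1895 hold no such run. Below are 4 of the 6 targets whose C share exceeded the G share by at least 20 percentage points, shown because none of those 6 probes was detected, with each run of 3 or more C in capitals.
miR-1247-5p: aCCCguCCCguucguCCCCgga
miR-760-5p: CCCCucaggccaccagagCCCgg
miR-1188-3p: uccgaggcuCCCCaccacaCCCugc
miR-324-3p: ccacugCCCCaggugcugcu

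Detection required 2 or more of a probe's 3 spots above the 95th percentile of the empty spots on the same array, 284.2 on the MCT array and 116.2 on the untreated array. By this rule 29 of the 54 very GC-rich probes (53.7%) were detected on at least 1 array, against 380 of the other 1087 miRNA probes (35.0%). Of the 29, 19 were detected on both arrays, 0 on the MCT array alone and 10 on the untreated array alone. The arrays differed the same way over the other 380, of which 6 were detected on the MCT array alone and 83 on the untreated array alone. The median miRNA spot was 225.7 on the MCT array and 105.2 on the untreated array, so the limit lay further above it on the MCT array. Detection on the untreated array alone therefore does not show absence from the MCT library. Values are normalised log2 intensities, and the log2 ratio is MCT minus untreated. A value after ± is the SD over the 3 repeat spots of each array (for a ratio, both arrays combined), so it leaves out the spread between animals. Lung is a mixture of cells, so fewer cells of a type and less RNA per cell cannot be told apart.

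Of the 29 detected very GC-rich miRNAs, 4 were at least 2-fold lower in the MCT library with spots that did not overlap between the arrays, and 0 were at least 2-fold higher. Over all 409 detected miRNA probes, 2.20% were called lower and 4.16% higher by the same rule. The 4 lower miRNAs are 13.8% of the detected very GC-rich probes, and the other 5 lower miRNAs are 1.32% of the remaining 380. Of these 5, 3 were among the 73 detected probes of 60% to under 70% GC and 2 among the 307 under 60%. The median log2 ratio of the 29 was -0.50, with 25 below 0, against -0.03 for the 380 others, with 205 below 0. Detection through the untreated array alone favours a ratio below 0, and this applies to 10 of the 29. Over miRNAs detected on both arrays the median was -0.69 for the 19 GC-rich ones, with 16 below 0, and 0.04 for the 291 others. With no detection filter the median of all 54 was -0.22. The spots of the arrays did not overlap for 24 of the 29 and for 261 of the 380 others. Each ratio is relative to the rest of the miRNA signal. Without normalization between the arrays the median of the 29 turned to 0.11, with 9 below 0, and no miRNA was called lower. The median log2 ratio of the 29 minus that of the others was -0.47 after quantile normalization, -0.62 without it, -0.34 without background correction and -0.21 with no detection filter.

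miR-2861, which represses the histone deacetylase Hdac5 in mouse osteoblasts, had scanner intensities of 6884, 6930 and 6570 on the MCT array, against 9595, 10234 and 10094 on the untreated array. All 3 MCT spots were below all 3 untreated spots before any normalization. Its normalised level was 12.11 ± 0.034 in the MCT library and 13.62 ± 0.045 in the untreated library, a log2 ratio of -1.51 ± 0.056, or 2.85-fold lower. The ratio fell short of 2-fold in other settings, at -0.58 without normalization, -0.80 when scaled by the 5S probes or centred on the median, -0.81 with the GC trend removed and -0.71 with the G trend removed. The mature sequence lies at chr2:32712819-32712837 on the minus strand (GRCm38.p6). miR-3960, which acts on Hoxa2 in mouse osteoblasts, is encoded beside it on chromosome 2, with 12 bases between the miRNA genes in the RefSeq gene table. Its spots read 17520, 16790 and 16523 on the MCT array, against 19692, 19695 and 19296 on the untreated array. The ratio of miR-3960 was -0.69 ± 0.11, so both miRNAs of this cluster had lower signal in the MCT library, and miR-2861 alone passed 2-fold. The ratio of miR-3960 turned to 0.015 with the GC trend removed and to 0.26 with the G trend removed.

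miR-705 lies within the span of Rab11fip5 at chr6:85336341-85336360, minus strand. Its spots read 4944, 4553 and 4566 on the MCT array, against 4598, 4662 and 4834 on the untreated array, and these scanner values overlap. After normalization the levels were 11.60 ± 0.062 in the MCT library and 12.75 ± 0.041 in the untreated library, a ratio of -1.15 ± 0.075. miR-3077-5p lies within the span of Sap18 at chr14:57798424-57798448, plus strand. Its spots read 1559, 1694 and 1604 on the MCT array, against 1562, 1589 and 1649 on the untreated array, again overlapping, and its ratio was -1.27 ± 0.12. The calls for this pair therefore rest on the normalization: most probes were brighter on the MCT array, and these were about as bright on both.

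miR-341-5p, from the imprinted Dlk1-Dio3 region of chromosome 12 (chr12:109611521-109611541, plus strand), was the 1 called miRNA with equal shares of G and C, 38.1% each. Its spots read 902.5, 860.0 and 792.5 on the MCT array, against 649.6, 724.8 and 739.5 on the untreated array. The scanner signal was thus higher on the MCT array, without overlap. The normalised level was 8.88 ± 0.092 in the MCT library and 10.03 ± 0.080 in the untreated library, a ratio of -1.15 ± 0.12, which turned to 0.083 without normalization. The seeds of the called miRNAs differ: GGGCCUG in miR-2861, GUGGGAG in miR-705, UGCGGAC in miR-3077-5p and GGUCGGC in miR-341-5p. No pair among the 54 shared a seed, bases 2 to 8.

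Scanner intensity itself, with no correction, was lower on the MCT array for 5 of the 29 detected very GC-rich miRNAs, judged by the median spot. This was so for 2 of the 380 others. The 5 were miR-5126, miR-3960, miR-149-3p, miR-2861 and miR-705, and they were the brightest of the 54. The other 2 were miR-709, with 68.4% GC and a G share of 57.9%, and the myeloid miR-223-3p, with 40.9% GC. miR-709 had a ratio of -0.56 ± 0.090 and miR-223-3p one of -1.21 ± 0.21. The spots of miR-223-3p read 1248, 1295 and 1243 on the MCT array, against 982.7, 1273 and 1326 on the untreated array, and these scanner values overlap. The median probe of the 29 was 1.81 times as bright on the MCT array as on the untreated array, and the median probe of the 380 others 2.11 times. Above the median level of detected probes it was 1.31 times for 15 very GC-rich probes and 2.16 times for 189 others. Bright others varied: the median spot of miR-126-3p read 41456 on the MCT array and 38637 on the untreated array. That of miR-200b-3p read 9110 on the MCT array and 2973 on the untreated array.

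miR-5126, whose target has no A or U, lies within the span of Dner at chr1:84695890-84695911, plus strand. Its spots read 21120, 20341 and 20388 on the MCT array, against 22461, 22781 and 22524 on the untreated array, without overlap. The normalised level was 14.07 ± 0.021 in the MCT library and 14.57 ± 0.010 in the untreated library, a ratio of -0.50 ± 0.023. This ratio turned to 0.28 with the GC trend removed and to 0.50 with the G trend removed. miR-149-3p, the G-rich arm of the hairpin within the span of the glypican gene Gpc1, lies at chr1:92850421-92850442, plus strand. Its spots read 12962, 13735 and 12430 on the MCT array, against 14172, 15423 and 15501 on the untreated array. The ratio of -0.88 ± 0.14 left it short of 2-fold.

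Of the other very GC-rich miRNAs detected on both arrays, miR-5105, miR-3072-5p and miR-5132 had ratios below 0 after normalization. miR-5105, with a run of 6 G, had levels of 10.66 ± 0.023 in the MCT library and 11.35 ± 0.10 in the untreated library, a ratio of -0.69 ± 0.10. miR-3072-5p, from the Dlk1-Dio3 region, had 9.62 ± 0.044 in the MCT library and 10.39 ± 0.082 in the untreated library, a ratio of -0.77 ± 0.094. miR-5132, within the span of the interleukin-1 receptor kinase gene Irak1, had a ratio of -0.92 ± 0.074. All 3 had normalised spots that did not overlap between the arrays, and none reached 2-fold. Without normalization their ratios turned to 0.34 for miR-5105, 0.44 for miR-3072-5p and 0.08 for miR-5132.

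Smaller differences were measured for other bright members. miR-762 had spots of 3212.5, 3081 and 3179 on the MCT array, against 1737, 1745 and 1709 on the untreated array, and a ratio of -0.25 ± 0.050 after normalization. miR-1895, within the span of Cxxc4, had 1779, 1899 and 1839 on the MCT array, against 802.9, 798.3 and 807.9 on the untreated array, and a ratio of -0.05 ± 0.047, about the size of its spread. miR-5115 had a ratio of -0.31 ± 0.22. Without normalization these 3 ratios were 0.82, 1.13 and 0.92.

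Positive ratios were found for 4 of the 29. miR-2137, within the span of Zfp185, had spots of 2001, 1962 and 2025 on the MCT array, against 698.0, 779.9 and 766.5 on the untreated array, and a ratio of 0.22 ± 0.099. miR-5130, within the span of Kctd12, had spots of 1176, 1097 and 1106 on the MCT array, against 344.9, 338.9 and 363.0 on the untreated array, and a ratio of 0.24 ± 0.12. miR-700-3p, within the span of Rcan3, had 0.16 ± 0.11, and miR-5122 had 0.13 ± 0.024. miR-5122 was detected on the untreated array alone. Its MCT spots of 259.7, 263.9 and 264.9 were under the detection limit of 284.2. The sign turned in 1 setting each for miR-2137, at -0.01 with the authors' processed values, and for miR-5122, at -0.11 when centred on the 75th percentile.

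The share of G and the share of C were not alike in their relation to the ratio. Probes were grouped as G-dominant, where the G share exceeded the C share by at least 20 percentage points, C-dominant for the reverse, and balanced otherwise. Of the 19 G-dominant very GC-rich probes 16 were detected (84.2%), of the 29 balanced ones 13 (44.8%), and of the 6 C-dominant ones 0. The detected G-dominant miRNAs had a median ratio of -0.69, with 15 of 16 below 0 and a range from -1.51 to 0.24. The detected balanced miRNAs had a median of -0.22, with 10 of 13 below 0 and a range from -1.15 to 0.22. Of the 4 lower calls, 3 were G-dominant and miR-341-5p was balanced. Without normalization the G-dominant median was close to 0, at -0.002.

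The same split was then made at lower GC content, after these values had been seen. Among probes of 60% to under 70% GC the median ratio was -0.48 for 23 detected G-dominant miRNAs, -0.21 for 34 balanced and -0.05 for 16 C-dominant ones. Under 60% GC the medians were -0.17 for 77 G-dominant, 0.11 for 184 balanced and -0.03 for 46 C-dominant miRNAs. Lower calls were 3 of the 23 G-dominant miRNAs at 60% to under 70% GC and 2 of the 184 balanced ones under 60%. Within each band the G-dominant group had the lowest median, and across the bands the C-dominant medians stayed within 0.05 of 0. No C-dominant probe at 70% or more was detected, so the part of C alone at this GC content was not measured.

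Over all 409 detected probes the ratio had a Pearson r of -0.43 and a Spearman rho of -0.42 with the G share, and 0.08 and 0.10 with the C share. Over the 29 very GC-rich miRNAs r was -0.46 and rho -0.47 with the G share, and 0.41 and 0.43 with the C share. With the mean level of both arrays the ratio of the 29 had an r of -0.44 and a rho of -0.45. Their level in turn had an r of 0.75 and a rho of 0.66 with the G share, so level and G share were not separated. Over all 409 the ratio had an r of 0.06 and a rho of 0.13 with the level. These are descriptions across probes that share the same 2 arrays. Among the 54, a high G share goes with a low C share by the way they were chosen. Grouped by G share alone, the median ratio of all detected probes was 0.10 at under 20% G (109 probes), 0.09 at 20% to under 30% (116), -0.06 at 30% to under 40% (94), -0.24 at 40% to under 50% (53) and -0.59 at 50% or more (37). The medians differed little below 30% G and were lower in each step above it.

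The motif GGGG, read in the target strand only, was in 19 of the 54 targets (35.2%) and in 88 of all 1141 (7.71%). The median ratio was -0.69 over the 13 detected very GC-rich miRNAs with GGGG and -0.30 over the 16 without it. Outside the 54, the 37 detected miRNAs with GGGG had a median of -0.36, against -0.01 for the 343 without it. Targets with 4 GG tracts were counted after the values were seen. The bases between tracts could themselves be G, so a long run of G could count more than once. It did in miR-3104-5p and miR-615-5p, each with a longest run of 5 G. Among the 54, 14 of 15 such probes were detected, with a median of -0.73, and among the others 12 of 19, with a median of -0.58 and all 12 below 0. A tract of this kind also marks a high share of G, so motif and share were not separated.

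Of the 54 probes, 14 counted as miRNAs conserved among mammals, 1 was mirtron-like and 39 were others. The conserved class was taken from a list of miRNA numbers. Conservation itself was not measured, so the others are not shown to lack it. A probe counted as mirtron-like if it was listed as a mirtron or if its RefSeq hairpin starts with GU and ends with AG, the letters at the ends of an intron. That match of letters is loose: 30 of 1005 RefSeq hairpins (2.99%) have it, miR-20a, which is no mirtron, among them. The 4 detected conserved miRNAs were all G-dominant arms, with a median ratio of -0.72. They were miR-149-3p, given above, miR-328-5p, miR-346-3p and miR-770-3p. miR-328-5p had spots of 430.2, 427.7 and 428.7 on the MCT array, against 287.5, 302.8 and 311.3 on the untreated array, and a ratio of -0.98 ± 0.044, which turned to 0.11 without normalization. miR-346-3p, within the span of the glutamate receptor gene Grid1, had -0.55 ± 0.075, and miR-770-3p, from the Dlk1-Dio3 region, -0.31 ± 0.15. Both were detected in the untreated library alone. The ratio of miR-346-3p turned to 0.03 without normalization, and that of miR-770-3p to 0.08 with the GC trend removed.

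The mirtron-like probe was miR-1982-5p, within the span of the antizyme gene Oaz1 at chr10:80828808-80828827, plus strand. It was detected in the untreated library alone, with spots of 229.4, 241.5 and 230.3 on the MCT array against 134.4, 148.0 and 142.8 on the untreated array, and its ratio was -0.57 ± 0.14. With 1 mirtron-like probe, the mirtron-like and conserved classes cannot be compared by their medians. The mirtron arm miR-1224-5p, just under the GC minimum at 66.7% and with 61.9% G, had a ratio of -0.59 ± 0.037, while miR-877-5p, at 65% GC and 55% G, had 0.14 ± 0.051. miR-3102 has 2 probes among the 54, within the span of Arhgef17, and its hairpin is not in the table used. A hairpin was found for 37 of the 54, and those without one, miR-3102 included, were counted among the others unless listed. miR-3102-5p.2-5p, named after its value was seen, had a ratio of -0.59 ± 0.068, and miR-3102-5p was not detected. The 24 detected miRNAs of the remaining class had a median of -0.39 and held all 4 lower calls. Of the 24, 11 were G-dominant, with a median of -0.69, and 13 balanced, with a median of -0.22. The 4 conserved ones, all G-dominant, had -0.72, close to that of the G-dominant others.

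The other arm of the same hairpin comes from the same transcript. Arms were paired by names that differ only in the arm ending. So paired, the other arm was on the array with less than 70% GC for 11 of the 29. In all 11 the other arm had the higher ratio, but only 4 of these arms were detected. Arms with irregular names were left out of this count. The arm opposite miR-1982-5p, at 52.2% GC, had a ratio of -0.03 ± 0.074. The arm opposite the detected miR-3102 arm, at 66.7% GC, had 0.07 ± 0.22. Neither was detected on either array, so these ratios carry no direction. miR-328-3p, a C-dominant arm, had -0.40 ± 0.12 beside -0.98 for miR-328-5p. miR-346-5p had -0.43 ± 0.040 beside -0.55 for miR-346-3p, and miR-3104-3p 0.10 ± 0.25 beside -0.22 ± 0.25 for miR-3104-5p, a gap within the spread of these spots. miR-700-5p, at 0.19 ± 0.082, and miR-700-3p, at 0.16, differed by less than the spread of their spots. The arms opposite miR-149-3p, miR-341-5p, miR-3072-5p and miR-3077-5p were not detected on either array, so their ratios carry no direction.

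Genome position grouped few of the miRNAs. By the RefSeq match, 30 of the 42 matched sequences lie inside the span of a protein-coding gene, with strand and exons not annotated in the table used. On chromosome 12 lie 10 of them, of which 5 were detected. Mir341 and Mir1188 are 227 bases apart there, and miR-1188-3p, C-dominant, was not detected. Mir5132 and Mir718 are 251 bases apart within the Irak1 span on chromosome X, and miR-718, with 38.1% G, was not detected either. The longest stretch shared by any pair of the 54 targets was 15 bases, between the arms of miR-3113, neither of which was detected.

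Of the 10 miRNAs detected in the untreated library alone, miR-681 had 6.85 ± 0.098 in the MCT library and 7.55 ± 0.078 in the untreated library, a ratio of -0.70 ± 0.13 that was -0.14 without normalization. miR-5131 had a ratio of -0.29 ± 0.20, which turned to 0.14 without normalization. miR-3091-5p had -0.21 ± 0.20, about the size of the spread of its spots. The 25 probes detected on neither array had scanner medians of 199.4 to 281.8 on the MCT array and of 94.8 to 114.3 on the untreated array. Among them were miR-712-5p, which arises from a ribosomal RNA spacer in mouse endothelium and targets Timp3, and miR-615-5p, from the Hoxc5 locus. The ratios of the 25 ran from -0.32 to 0.42, the highest being that of miR-324-3p at 0.42 ± 0.11, with signals inside the range of the empty spots.

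The probes beside the GC minimum were mostly undetected, as were miRNA probes at large. Over all 1141 miRNA probes 35.8% were detected on at least 1 array, and of those with 60% to under 70% GC 44.8%. Just inside, at 70% GC, miR-1982-5p had the ratio of -0.57 given above, and miR-324-3p, miR-760-3p and miR-3113-3p were not detected. Just outside, at 69.6% GC, miR-671-5p had -0.99 and miR-598-5p was not detected, and at 68.4% miR-709 had -0.56 and miR-5111-3p was not detected.

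The arrays differed in overall brightness. The median empty spot was 252.8 on the MCT array and 100.7 on the untreated array, the median miRNA spot 225.7 and 105.2 on the same arrays, and the median spot of the 5S ribosomal RNA probes 31900 and 18994. The part of these differences in the ratios of GC-rich probes was not tested. Markers of lung were present: the endothelial miR-126-3p, the epithelial miR-200b-3p, miR-200c-3p and miR-34b-3p and the smooth muscle miR-143-3p and miR-145-5p were detected on both arrays. The brain miRNAs miR-124-3p and miR-9-5p and the cardiac miR-208b-3p were detected on neither, and the liver miR-122-5p on the untreated array alone. The muscle miRNAs miR-1a-3p and miR-133a-3p, the myeloid miR-223-3p and the red cell miR-451 were detected on both, and the red cell miR-144-3p on neither. Of these markers only miR-223-3p, lower, passed 2-fold after normalization, though its scanner values overlap between the arrays. Its part in the values of the GC-rich miRNAs was not tested.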

How the data were processed

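The labels name Cy3-labelled total RNA on a µParaflo array. Per the file headers, the deposited scanner tables give the median intensity of each spot, without background subtraction. The authors' processed series table gives 1 intensity per probe. The sources used here do not state how its background was removed and its arrays were scaled.

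Intensities were corrected with normexp (offset 50) in limma 3.58.1 under R 4.3.3, log2 transformed and quantile normalised over the miRNA spots of both arrays, and the 3 spots were averaged. The offset pulls the ratios of dim probes towards 0. A miRNA was called when detected in either library, with a log2 ratio of at least 1 in size and spots that did not overlap.

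Named were miRNAs past 2-fold, the 10 brightest, up to 8 per direction with the largest ratios in both libraries, up to 6 bright ones with the smallest ratios, all detected conserved and mirtron-like ones, up to 6 detected in 1 library, those beside the GC minimum, and other arms. The members, classes and lists were chosen with earlier results of these data known. Groups by G share, GG tracts, GC band and scanner signal were added after the values were seen.

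The steps were tested on simulated arrays. A first criterion of that test, on recovered fold sizes, was not met: the offset and the quantile step shrink folds. It was replaced by recovery before quantile normalization, with the offset allowed for, and no call of a changed probe in the wrong direction. After quantile normalization a wider limit was kept on the folds of bright probes, taken relative to unchanged ones. Calls among unchanged probes were not part of the criteria. Alternatives covered background, offset, scaling, spots, detection, thresholds, base composition trends and the authors' values (pseudocount 50). Precision is limited by the number of arrays, 1 a group. Python 3.11.15, numpy 2.4.6, pandas 2.3.3 and statsmodels 0.14.6 were used.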

Additional observations from a re-analysis of the deposited data

How the results depend on the processing

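Ratios and counts depended on the scaling. Without normalization 3 of the 29 GC-rich miRNAs were higher (miR-5130, miR-2137 and miR-1895) and 0 lower, where 142 of all 409 were higher and 0 lower. The median log2 ratios were 0.11 for all 29, -0.00188 for G-dominant, -0.18 for mirtron-like and -0.00581 for conserved ones. The median of the 380 others was 0.73. The ratio of miR-341-5p turned to 0.083 there. Scaled by the 5S probes, 2 were higher and 0 lower, with medians of -0.11, -0.22, -0.40 and -0.23 in the same order, and centred on the median of the miRNA spots 2 and 0, with -0.11, -0.22, -0.40 and -0.22. Centred on the 75th percentile 1 was higher and 1 lower, and the mirtron-like and conserved medians were -0.78 and -0.60. Over all 409, 97 were higher and 0 lower with the 5S probes and with the median, and 49 higher and 8 lower with the 75th percentile. From 1 of these 4 settings to another, all ratios move by the same amount. From the quantile normalised values they do not: without normalization miR-5126 went from -0.50 to -0.14 and miR-5130 from 0.24 to 1.60.

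With the trend of the ratio on GC content removed, which by construction takes out the shift of GC-rich probes, 0 were lower and the 4 medians were 0.0503, -0.22, -0.22 and -0.23. With the trend on the G share removed, chosen after seeing the data, 0 were lower and they were -0.0786, -0.13, 0.0577 and -0.11. The authors' values gave medians of -0.61 for all, -0.81 for G-dominant and -0.75 for mirtron-like ones. Without background correction the medians were -0.37 for all, -0.37 for mirtron-like and -0.60 for conserved ones, and with an offset of 16 the mirtron-like one was -0.79. With no detection filter, which adds undetected probes, the medians were -0.22 for all and -0.13 for conserved ones. For miRNAs detected in both libraries they were -0.69 and -0.93, and with detection from dim miRNA spots -0.69 and -0.88. Without repeat spot 2 the conserved median was -0.89. A GC minimum of 65% gave -0.31 for all, -0.31 for mirtron-like and -0.43 for conserved ones, and one of 75% gave -0.88 for conserved ones. With G above C by any amount the G-dominant median was -0.50. At 1.5-fold 12 were lower, of 44 lower and 46 higher over all 409.

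The C-dominant median had no main value, since 0 of those probes were detected. Of 336 alternative values of 24 single miRNAs 41 had another sign than reported, over 17 miRNAs, and 11 of the 41 came without normalization. Of these miR-341-5p alone had been past 2-fold, and 24 other values of miRNAs past 2-fold fell short of it. The cause of these changes was not tested. No paired analysis was possible because each group has 1 array. Probes near the empty spots have ratios limited by signal over background.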
